A study of Mus musculus with 6 samples.

Results

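The 10 genes described here, Trpv5, Calb1, S100g, Slc8a1, Atp2b1, Atp2b2, Trpm6, Pvalb, Cnnm2 and Kl, encode the calcium and magnesium handling machinery of the distal nephron. They were taken by symbol from the rows of the count matrices, 10 of 26903 genes, and all 10 were present in the data. In the late distal tubule, calcium enters the cell from the urine through the channel TRPV5, is bound and carried by the calbindins (calbindin-D28k, the product of Calb1, and calbindin-D9k, the product of S100g), and leaves on the blood side through the sodium/calcium exchanger NCX1 (Slc8a1) and the plasma membrane calcium pumps (Atp2b1 and Atp2b2). Magnesium enters through TRPM6, mainly in the distal convoluted tubule, where parvalbumin (Pvalb) is the cytosolic calcium and magnesium buffer of the early stretch and CNNM2 sits in the basolateral membrane. Klotho (Kl) is the co-receptor for the phosphate hormone FGF23 and is known to keep TRPV5 at the cell surface.

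Single-cell RNA-sequencing was performed on renal cortex of 9-month-old mice, 3 of them wild type (WT) and 3 lacking Prdm16 globally (KO), captured with BD Rhapsody beads, 1 library per mouse. The KO allele was made with CRISPR-Cas9 by deleting exon 2, which shifts the reading frame, in every cell of the animal and not in the kidney alone. All mice were labelled male, and the labels name no treatment. After filtering, 28488 cells remained, 3538 to 6276 per library, with a median of 2379 to 3579 UMIs (unique molecular identifiers, counted transcripts) per cell and 22965576 to 35466583 UMIs per library.

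The cells fell into 23 clusters, which were grouped into classes by marker genes and are therefore to be read as DCT-like, CNT-like and so on. The classes used below are distal convoluted tubule (DCT), connecting tubule (CNT), principal cells (PC), intercalated cells (IC), thick ascending limb of the loop of Henle (LOH), descending limb (DLH), proximal convoluted tubule (PCT), podocytes, endothelial cells, stromal and mesangial cells, macrophages, T and NK cells, and cluster 10, which had leading genes of both the thick ascending limb and the macula densa (Nos1, Cldn16) and stays unnamed. These 13 classes had at least 10 cells in every library. None of the 10 genes was used for clustering or naming. In the DCT class 8 of 9 DCT markers were detected in at least 10% of cells, and in the CNT class 5 of 8 CNT markers were, with Scn2a absent. Of the CNT clusters, cluster 7 scored higher on the PC list (1.62) than on the CNT list (0.967). It was named CNT because 3 CNT markers and 1 PC marker stood among its leading genes.

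Several features of the libraries bear on the values below. The library labelled WT replicate 2 and the library labelled KO replicate 1 carried Xist, at 297 and 307 CPM (UMI counts scaled to a common library total), and summed Y-linked transcripts of 0.0564 and 0.0612 CPM, where the other 4 libraries had 109 to 133 CPM of Y-linked transcripts. These 2 libraries, 1 in each group, go against the label male. Prdm16 itself was at 26.7 to 32.1 CPM over all WT cells and 21.2 to 25.3 CPM over all KO cells, but counts read near transcript ends do not check a deletion of exon 2. Across the 6 libraries, 10 cell labels were shared between pairs of libraries. Free RNA was present: barcodes with fewer than 100 UMIs, which hold no intact cell, carried S100g at 2716 to 3792 CPM in WT and 1154 to 2692 CPM in KO, and Calb1 at 530.2 to 953 CPM and 542 to 768 CPM. One cluster of the IC class (cluster 2, 2567 cells) was shallow, with a median of 1194 UMIs per cell, and held S100g at 11394 CPM and Trpv5 at 141 CPM, while the other IC clusters 14 and 15 had S100g at 693 and 329 CPM and Trpv5 at 8.23 and 2.35 CPM.

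The level of each gene was first compared over the 13 classes, as its CPM among the UMIs of the class in each library, with the mean and SD over the 6 libraries. Since the classes are cut from the same cells, these levels are a description. The calcium entry channel Trpv5 (chr6:41652173-41680769, minus strand, build GRCm38) was highest in CNT, at 403 ± 62.3 CPM (SD, n = 6), and every library had more there than in any other class. The DCT followed with 83.6 ± 32.4 CPM, a range that overlapped the IC class at 72.4 ± 21.4 CPM. The next in order, DLH, had 53.5 ± 44.2 CPM, a range that overlapped IC, and it rested on 6 to 47 UMIs per library. In DLH, Calb1 was at 21.6 ± 13.05 CPM, S100g at 265 ± 192 CPM, Slc8a1 at 45.4 ± 31.5 CPM and the pump gene Atp2b1 at 158 ± 41.5 CPM.

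Among the buffers, Calb1 (chr4:15881264-15908064, plus strand) was at 3683 ± 616 CPM in DCT and 3443 ± 1188 CPM in CNT, and the order of these classes cannot be drawn because their ranges overlapped, with DCT above CNT in 4 of 6 libraries. PC followed with 869 ± 228 CPM, below CNT in 6 of 6 libraries. S100g (chrX:162961992-162964599, minus strand) was at 23593 ± 5703 CPM in CNT and 6457 ± 2319 CPM in DCT, and the ranges of these classes did not overlap. The next class, IC at 5879 ± 3237 CPM, came from the shallow cluster described above.

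The exchanger gene Slc8a1 (chr17:81373105-81738377, minus strand) was at 2062 ± 813 CPM in CNT, with a range of 623 to 3102 CPM, and at 925 ± 258 CPM in DCT. CNT was above DCT in 5 of 6 libraries, and the ranges overlapped because WT replicate 2 was low in CNT. Outside the tubule, stromal and mesangial cells had 247 ± 56.6 CPM. The 2 calcium pumps differed in the classes where they were highest. Atp2b1 (chr10:98914406-99026143, plus strand), the broadly expressed pump, was highest in macrophages at 358 ± 58.8 CPM and in T and NK cells at 318 ± 49.9 CPM, with overlapping ranges, and reached 92.0 ± 8.05 CPM in DCT and 78.1 ± 16.5 CPM in CNT. Atp2b2 (chr6:113743831-114042613, minus strand) was found in CNT at 45.9 ± 17.9 CPM, in PC at 37.1 ± 17.4 CPM and in endothelial cells at 26.5 ± 16.2 CPM, while DCT had 5.14 ± 1.96 CPM and no UMI was counted in PCT, which had as few as 18797 UMIs in a library. Within the endothelial class the pump sat in cluster 20, at 118 CPM, and in cluster 8, at 33.8 CPM, and was at 2.05 and 1.51 CPM in clusters 5 and 6.

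The magnesium genes centred on DCT. Trpm6 (chr19:18749983-18892511, plus strand) was at 141 ± 39.2 CPM in DCT, against 18.6 ± 6.39 CPM in CNT and 17.3 ± 7.03 CPM in DLH, and the DCT range lay clear of both. Pvalb (chr15:78191114-78206400, minus strand) was nearly restricted to DCT, at 313 ± 168 CPM. The next class, PCT, owed its mean of 8.99 CPM mainly to KO replicate 1, which had 10 PCT cells, and the CNT mean was 0.712 ± 0.485 CPM. Cnnm2 (chr19:46761596-46880192, plus strand) was at 101.5 ± 17.0 CPM in DCT and 27.4 ± 5.39 CPM in CNT, again without overlap. Klotho (chr5:150952607-150993817, plus strand) was at 1951 ± 571 CPM in CNT and 906 ± 326 CPM in DCT, CNT being higher in 6 of 6 libraries although the ranges overlapped, and it was also present in PCT, LOH and cluster 10 at 218 ± 65.3 CPM, 181 ± 34.6 CPM and 186 ± 79.9 CPM. All gene positions are those of the GENCODE annotation of GRCm38.

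**Figure D1:**
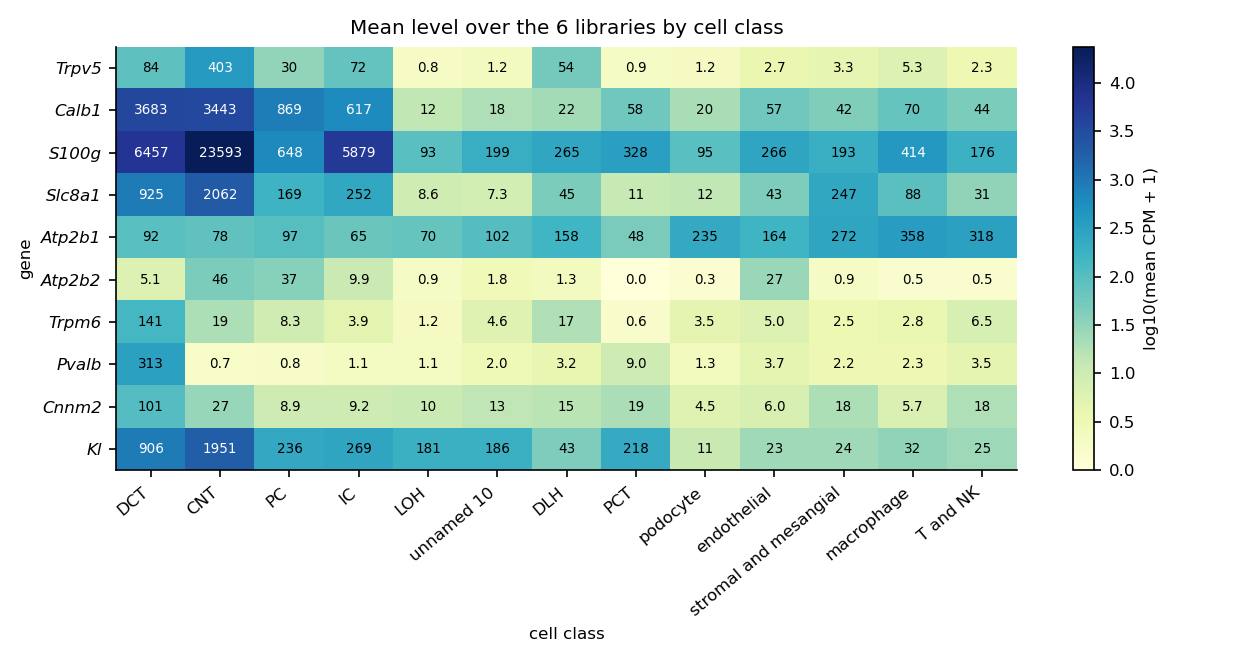
Mean level of the 10 genes (rows) in 13 cell classes (columns) over the 6 libraries, colour as log10(mean CPM + 1) and the mean CPM written in each cell. Trpv5, S100g, Slc8a1 and Kl peak in CNT, Trpm6, Pvalb and Cnnm2 in DCT, Calb1 in both, and Atp2b1 in macrophages.

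The genes whose pattern over the 13 class means was most like each gene were named by Pearson's r of log2(CPM + 1), among 10177 genes that reached 20 CPM in a class. These values describe shared class patterns over 13 points from the same libraries, and carry no test. Trpv5 and S100g both had Llcfc1 (r = 0.925 and 0.953) and Scube3 (r = 0.902 and 0.928) among their 3 nearest genes, with Rhcg (r = 0.907), an ammonia channel of the distal nephron, for Trpv5 and Slc2a9 (r = 0.945) for S100g. Calb1 was nearest to Pgam2 (r = 0.946), Slc2a9 (r = 0.944) and Emx1 (r = 0.938). Slc8a1 was nearest to Scube3 (r = 0.940), Calb1 (r = 0.881) and 9230102O04Rik (r = 0.874). Pvalb was nearest to Slc12a3 (r = 0.948), the sodium chloride cotransporter that defines the DCT, followed by Lrrc52 (r = 0.901) and Hbb-bt (r = 0.872). Trpm6 was nearest to Htr3a (r = 0.876), Tdrd3 (r = 0.852) and Nup93 (r = 0.819), and Cnnm2 to Gm50431 (r = 0.853), Chrna4 (r = 0.851) and Nup93 (r = 0.845). Atp2b1 was nearest to Actb (r = 0.969), Fam49a (r = 0.967) and Abi1 (r = 0.956). Atp2b2 was nearest to Lypd6 (r = 0.939), Slc35g2 (r = 0.917) and Grem1 (r = 0.904), and Kl to Akr1c19 (r = 0.916), Dlec1 (r = 0.908) and Dmac2 (r = 0.898).

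The main question of the design is what the loss of Prdm16 changed. For each class, UMIs were summed per library and WT was compared with KO by edgeR's quasi-likelihood test over all genes of the class, 3 libraries against 3, with the Benjamini-Hochberg adjusted p below 0.05 as the threshold. Over the 13 classes 82 tests of the 10 genes could be made, and 9 passed, 2 higher and 7 lower in KO, in 5 classes. Over all genes in the same classes, 1.5% of tests passed. The DCT held 5 of these 9, with Trpv5, S100g and Kl lower and Trpm6 and Pvalb higher, where 1.06% of the 9913 genes tested in DCT passed. The median log2 fold change of the 10 genes in DCT was -0.34 and that of all genes tested there 0.0046.

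The entry channel was lower in DCT of KO mice. In DCT, Trpv5 was at 120.5, 83.6 and 124 CPM in WT replicates 1 to 3 and at 46.0, 59.0 and 68.3 CPM in KO replicates 1 to 3. No KO library reached the lowest WT library (log2 fold change of -0.95 with SE 0.19 and an adjusted p of 0.0224 by edgeR). The call passed without WT replicate 2 or KO replicate 3, and was lost without any of the other 4 libraries, with adjusted p of 0.0829 to 0.180 and log2 fold changes of the same sign throughout. Trpv5 was also lower in the free RNA of every KO library, at 47.5 to 56.0 CPM in WT and 31.7 to 43.8 CPM in KO. The part of that was not tested. Without the 2 libraries that carried Xist the call held (-0.94, adjusted p = 0.00393, 2 against 2).

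Of the calbindins, S100g passed in DCT and Calb1 did not. The difference between these 2 genes was not tested. S100g was at 9703, 8247 and 7157 CPM in the WT libraries and 5562, 3767 and 4308 CPM in the KO libraries, again with no overlap (log2 fold change of -0.89 with SE 0.14 and an adjusted p of 0.00571 by edgeR), and every leave-one-out fit kept the call. S100g was also lower in the free RNA of the KO libraries, by the values given above, and the part of free RNA in this difference was not tested. For Calb1 the WT libraries had 4266, 2995 and 4564 CPM and the KO libraries 3349, 3242 and 3683 CPM. These groups overlapped and the test did not pass (log2 fold change of -0.21 with SE 0.14 and an adjusted p of 0.710 by edgeR), although the sub-clusters described below moved in opposite directions.

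On the exit side, Slc8a1 in DCT was at 1307, 715 and 1183 CPM in the WT mice and 722, 747 and 875 CPM in the KO mice. WT replicate 2 was as low as the KO libraries and the test did not pass (log2 fold change of -0.46 with SE 0.18 and an adjusted p of 0.382 by edgeR). Leaving that library out brought Slc8a1 past the threshold (-0.69, adjusted p = 0.0118), as did leaving out both libraries with Xist (-0.62, adjusted p = 0.0191). Atp2b1 had 91.8, 81.0 and 94.9 CPM (WT) and 104, 86.0 and 93.9 CPM (KO), a difference within the spread (log2 fold change of 0.08 with SE 0.12 and an adjusted p of 0.895 by edgeR). Atp2b2, at 5.89 CPM in WT against 4.39 CPM in KO on average, did not pass either (log2 fold change -0.59, adjusted p of 0.725 by edgeR).

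The magnesium channel and the early DCT buffer went the other way. Trpm6 was at 103, 93.4 and 125 in WT against 181, 159 and 183 CPM in KO, so that the lowest KO library exceeded the highest WT library (log2 fold change of 0.70 with SE 0.13 and an adjusted p of 0.0169 by edgeR). This call was lost on leaving out WT 1, WT 2, KO 1 or KO 3, with adjusted p of 0.0544 to 0.0994, and without both libraries with Xist (0.59, adjusted p = 0.1004). Pvalb was at 206, 156 and 191 CPM in the WT mice and 287, 477 and 564 CPM in the KO mice. The KO libraries were spread widely but all lay above the WT range (log2 fold change of 1.26 with SE 0.20 and an adjusted p of 0.00740 by edgeR), and the call was kept in all 6 leave-one-out fits. In free RNA Pvalb was likewise higher in every KO library, at 26.8 to 43.0 CPM in WT and 47.1 to 51.4 CPM in KO. The part of that was not tested. Cnnm2 reached 91.3, 72.9 and 107 CPM (WT) and 120.6, 112 and 104 CPM (KO), with overlap (log2 fold change of 0.31 with SE 0.14 and an adjusted p of 0.481 by edgeR).

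Klotho was lower in DCT and in cluster 10 of KO mice. Kl in DCT was at 1226, 836 and 1379 in WT against 531, 715 and 749 CPM in KO, with the groups apart (log2 fold change of -0.80 with SE 0.18 and an adjusted p of 0.0468 by edgeR). As for Trpv5, the call held without WT replicate 2 or KO replicate 3 and was lost without any of the others, with adjusted p of 0.135 to 0.253; without both libraries with Xist it was -0.83 with an adjusted p of 6.52e-04. The DCT call of Kl was also lost without doublet removal (adjusted p = 0.0542). Kl passed in cluster 10 as well, where 2.13% of genes did. There it was at 248, 205 and 304 CPM in the WT mice and 106, 134 and 118 CPM in the KO mice (log2 fold change of -1.06 with SE 0.14 and an adjusted p of 5.91e-04 by edgeR), on 203 to 647 UMIs per library. That call was kept in all 6 leave-one-out fits and lost at a mitochondrial limit of 30% (-0.11, adjusted p = 0.979). The other classes with Kl did not pass. In LOH it was at 199, 209.9 and 208 CPM (WT) and 134, 196 and 140.4 CPM (KO) (adjusted p of 0.134 by edgeR), and in PC at 237, 203 and 176 and 263, 279 and 259 CPM (log2 fold change 0.41, adjusted p of 0.154 by edgeR).

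All DCT calls depended on the limit set on mitochondrial UMIs. The retained DCT cells had at most 50% of their UMIs from mitochondria. A limit of 30% left 717 of 2267 DCT cells, and none of the 5 calls passed there, with Trpv5 at a log2 fold change of 0.74 (adjusted p = 0.672) and Calb1 at 1.05 (adjusted p = 0.0374). Without any limit, Trpv5 passed and S100g, Trpm6, Pvalb and Kl kept their direction with adjusted p of 0.0574 to 0.233. The summed level of 8 LOH markers in DCT cells was 3329 to 4759 CPM in WT and 4390 to 8259 CPM in KO, mostly Umod, with no marker at 0, and the part of this in the differences was not tested. Slc12a1, the LOH cotransporter, was at 16.6 to 27.0 CPM in every DCT library, against 4744 to 5512 CPM in LOH.

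**Figure D2:**
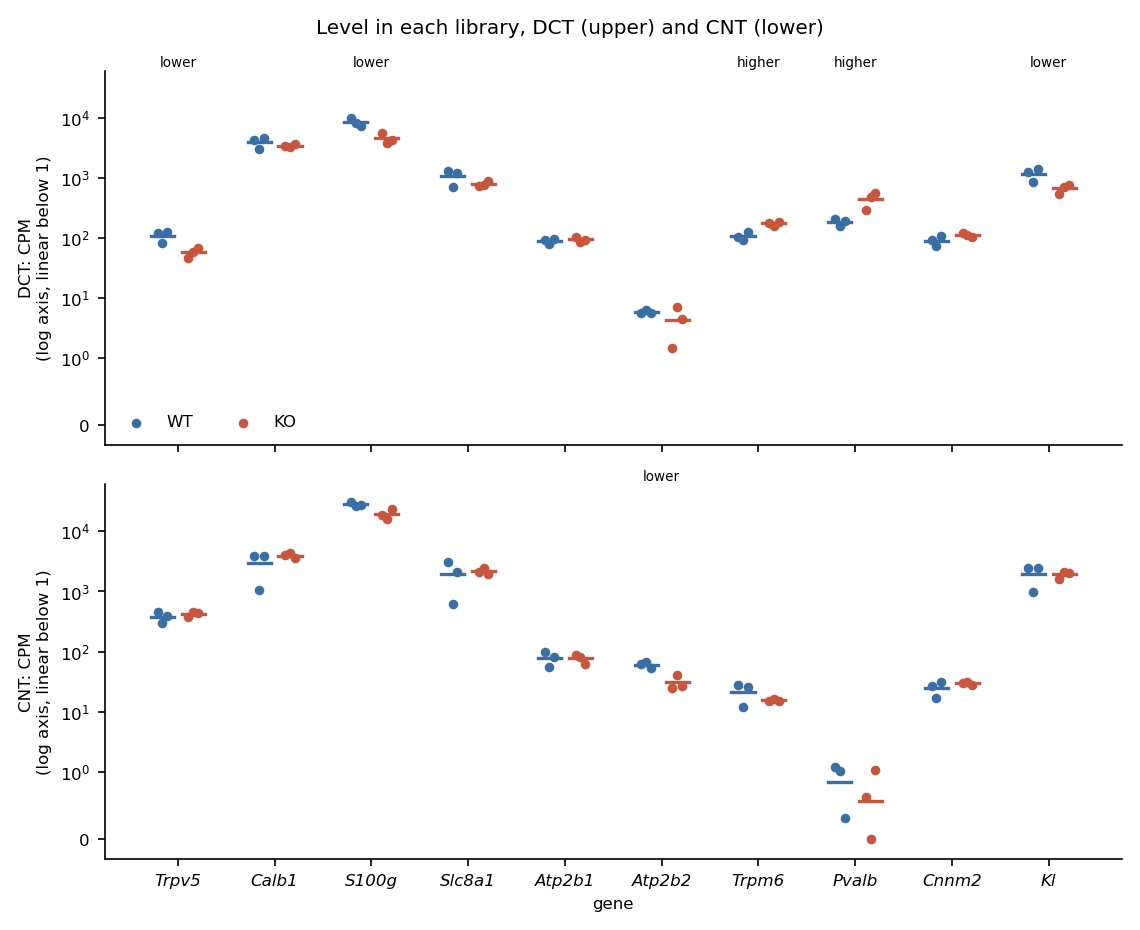
Level of the 10 genes in each library in DCT (upper panel) and CNT (lower panel), in CPM on a log axis that is linear below 1, with WT in blue, KO in red and a bar at each group mean. The words lower and higher mark genes that passed the test in KO against WT, which are Trpv5, S100g, Trpm6, Pvalb and Kl in DCT and Atp2b2 in CNT.

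The promoters of the genes that moved together in DCT are shown so that their sequences can be compared. For each, the 250 bases before the RefSeq transcription start (build GRCm38.p6, printed 5′ to 3′ on the strand of the gene) were searched on both strands for TATAAA, the core of a TATA box, and AGGTCA, a nuclear receptor half-site. Matches are in capitals, and the reverse complement of AGGTCA is TGACCT. No promoter of Calb1 was in the table used. The promoters of the genes that were lower in KO, Trpv5 (chr6:41680724-41680973, minus strand), S100g (chrX:162964600-162964849, minus strand) and Kl (chr5:150952357-150952606, plus strand), read as follows.
Trpv5: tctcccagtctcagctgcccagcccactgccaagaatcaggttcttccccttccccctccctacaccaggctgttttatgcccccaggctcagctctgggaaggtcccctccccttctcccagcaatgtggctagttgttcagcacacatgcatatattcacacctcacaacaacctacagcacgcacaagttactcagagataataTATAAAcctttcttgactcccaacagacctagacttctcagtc
S100g: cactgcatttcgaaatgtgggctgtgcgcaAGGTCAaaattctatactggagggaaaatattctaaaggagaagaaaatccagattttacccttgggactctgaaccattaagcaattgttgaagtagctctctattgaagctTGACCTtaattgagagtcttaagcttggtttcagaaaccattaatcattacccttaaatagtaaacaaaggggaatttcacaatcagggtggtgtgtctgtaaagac
Kl: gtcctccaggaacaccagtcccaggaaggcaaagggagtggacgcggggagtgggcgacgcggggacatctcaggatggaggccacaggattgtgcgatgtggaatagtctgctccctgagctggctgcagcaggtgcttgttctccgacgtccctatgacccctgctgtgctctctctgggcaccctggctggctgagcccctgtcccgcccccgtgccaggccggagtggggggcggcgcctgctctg
Those of the genes that were higher, Trpm6 (chr19:18749480-18749729, plus strand) and Pvalb (the upstream of 2 starts, chr15:78206401-78206650, minus strand), read as follows.
Trpm6: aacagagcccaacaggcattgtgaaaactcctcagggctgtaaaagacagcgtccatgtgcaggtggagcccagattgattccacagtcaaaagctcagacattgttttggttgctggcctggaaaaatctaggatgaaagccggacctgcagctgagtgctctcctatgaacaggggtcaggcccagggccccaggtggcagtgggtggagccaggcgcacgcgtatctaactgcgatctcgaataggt
Pvalb: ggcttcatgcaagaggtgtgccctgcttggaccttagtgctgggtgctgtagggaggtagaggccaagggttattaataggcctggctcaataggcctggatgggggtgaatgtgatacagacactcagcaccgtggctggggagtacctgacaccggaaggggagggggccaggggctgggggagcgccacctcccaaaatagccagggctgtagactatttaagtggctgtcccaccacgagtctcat
TATAAA was found in the promoter of Trpv5 and of none of the other members with an entry, and in 12.4% of 32851 promoters of the same length. AGGTCA was found 2 times in S100g and in none of the others, and in 14.0% of all promoters. The 3 promoters of the genes that were lower thus shared neither motif, and a match here is a description of letters, not of binding.

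In CNT, the calcium pump gene Atp2b2 was the only one of 9 tested members to pass, where 2.64% of 10283 genes did. It was at 61.4, 67.7 and 53.9 in WT against 25.4, 40.4 and 26.8 CPM in KO, without overlap (log2 fold change of -0.99 with SE 0.17 and an adjusted p of 0.00575 by edgeR), on 75 to 329 UMIs per library, and all 6 leave-one-out fits kept it. With only the libraries without Xist it was -0.75, adjusted p = 0.0949. The same gene passed in PC, where 2.26% of genes did, at 61.4, 47.1 and 47.7 CPM in the WT mice and 18.9, 26.9 and 20.7 CPM in the KO mice (log2 fold change of -1.22 with SE 0.20 and an adjusted p of 0.00814 by edgeR), on 23 to 140 UMIs per library. It was kept in PC when any single library was left out and missed the threshold without both libraries with Xist (-1.18, adjusted p = 0.0637). At the 30% mitochondrial limit the call was kept in PC and lost in CNT (-0.70, adjusted p = 0.278). In free RNA Atp2b2 was also lower in every KO library, at 11.2 to 22.2 CPM in WT and 5.08 to 8.93 CPM in KO on 38 to 133 UMIs. Its part in the differences in CNT, PC, IC and all cells was not tested.

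In endothelial cells Atp2b2 was at 51.8, 40.7 and 19.97 CPM (WT) and 9.13, 20.2 and 17.3 CPM (KO). The groups overlapped at WT replicate 3 and KO replicate 2, and the test did not pass (log2 fold change of -1.31 with SE 0.36 and an adjusted p of 0.208 by edgeR), with 0.195% of endothelial genes called. The IC class passed formally, at 14.5, 15.5 and 11.1 in WT against 6.61, 6.16 and 5.84 CPM in KO (log2 fold change of -1.11 with SE 0.19 and an adjusted p of 0.0224 by edgeR), where 1.04% of genes were called. However, Atp2b2 was at 19.3 CPM in the shallow cluster 2 and at 0.992 and 0.915 CPM in IC clusters 14 and 15, and without cluster 2 it was too low to be tested. The IC call was also lost on leaving out WT 1, WT 2, KO 1 or KO 2, with adjusted p of 0.0573 to 0.103. Over all cells summed, Atp2b2 was the 1 member of 10 to pass (0.593% of all genes), at 18.4, 18.2 and 12.6 CPM in the WT mice and 7.13, 8.45 and 6.62 CPM in the KO mice (log2 fold change of -1.13 with SE 0.15 and an adjusted p of 0.0329 by edgeR). It was lost on leaving out WT 1, WT 2, KO 1 or KO 2, with adjusted p of 0.0991 to 0.128.

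**Figure D3:**
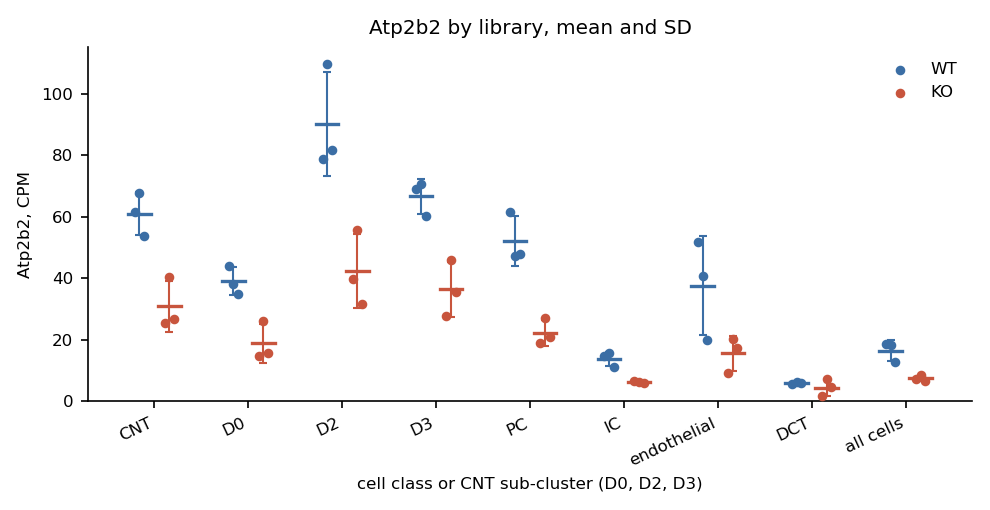
Level of Atp2b2 in CPM in each library, WT in blue and KO in red, with the mean (bar) and SD (error bar) of each group, for CNT, the sub-clusters D0, D2 and D3, PC, IC, endothelial cells, DCT and all cells. The KO libraries lie below the WT libraries in CNT, the 3 sub-clusters, PC, IC and all cells, and overlap them in endothelial cells and DCT.

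The other calcium genes of CNT did not pass. S100g was at 31197, 26189.8 and 26834 CPM (WT) and 18534, 15739 and 23064 CPM (KO), apart from each other, as for 16.2% of genes in CNT, but not past the threshold (log2 fold change of -0.52 with SE 0.20 and an adjusted p of 0.264 by edgeR). Trpv5 was at 462, 296 and 385 in WT against 384, 449 and 443 CPM in KO (log2 fold change of 0.19 with SE 0.17 and an adjusted p of 0.728 by edgeR). Calb1 was at 3862, 1071 and 3893 CPM in the WT mice and 3993, 4304 and 3537 CPM in the KO mice, and Slc8a1 at 3102, 623 and 2114 CPM and 2109.8, 2439 and 1984 CPM. In both, WT replicate 2 stood far below the other 5 libraries. That library was the lowest of the 6 for 7 of the 9 members tested in CNT, and for 10.6% of all genes tested in CNT. The other library with Xist, KO replicate 1, was the lowest for 1 of the 9. In DCT, WT replicate 2 was the lowest for 6 of the 10 members and 11.5% of genes, and KO replicate 1 for 3 members and 13.1% of genes. Kl in CNT was also low in WT replicate 2, at 2483, 989 and 2471 CPM (WT) and 1615, 2139.7 and 2011 CPM (KO) (log2 fold change of -0.02 with SE 0.28 and an adjusted p of 0.988 by edgeR). With WT replicate 2 left out, Trpm6, at 27.6, 11.9 and 25.5 in WT against 14.96, 16.5 and 15.01 CPM in KO, passed as lower in CNT (-0.79, adjusted p = 0.0384), whereas with all libraries it did not (-0.45, adjusted p of 0.561 by edgeR).

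Whether the genotype effect differed between DCT and CNT was tested directly, in a single edgeR fit over both classes with the library as a block, so that each mouse served as its own reference. Of the 10 members 3 passed, against 0.845% of 10774 genes. The difference of the log2 fold changes, CNT minus DCT, was 1.13, SE 0.14, adjusted p = 8.63e-05 for Trpv5 and 0.87, SE 0.16, adjusted p = 0.00945 for Kl, both lower in KO in DCT and not in CNT. For Trpm6, higher in KO in DCT, it was -1.14, SE 0.23, adjusted p = 0.0156. Calb1 (0.84, SE 0.24, adjusted p = 0.133) and Slc8a1 (0.87, SE 0.24, adjusted p = 0.113) did not pass. The Trpv5 and Kl terms were kept when any single library was left out, and the Trpm6 term was lost on leaving out WT 1, WT 3, KO 1 or KO 3, with adjusted p of 0.0585 to 0.149. All 3 passed in the libraries without Xist, and none passed at the 30% mitochondrial limit, where Trpv5 had the opposite sign (-0.53, adjusted p = 0.868).

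Because these genes change along the distal nephron, the 4836 DCT and CNT cells were clustered again, without the 10 genes, into 7 sub-clusters. Among DCT cells, D1 (965 cells, led by Pvalb, Gpx3 and Pigr, median 950 UMIs), D4 (745 cells, led by Sox9, Stk32b and Cxcl10, median 13530 UMIs) and D5 (400 cells, led by Rtn1, Sfrp1 and Ltc4s, median 14532 UMIs) could be tested, and D6 (83 cells, as few as 2 in a library) could not. D5 carried Trpv5, known for the late DCT, and D1 and D4 carried Pvalb, known for the early DCT. In D1 of the WT libraries, Pvalb was at 503, 432 and 629 CPM, above D4, and Trpv5 at 6.34, 9.20 and 6.64 CPM. In WT, Trpv5 was at 345, 297 and 369 CPM in D5 and 8.60, 5.24 and 2.39 CPM in D4, Pvalb at 3.58, 37.0 and 7.03 CPM in D5 and 176, 186 and 159.8 CPM in D4. Slc12a3 was at comparable levels in both, 2875 ± 259.9 CPM in D4 and 2787 ± 361 CPM in D5 (WT, SD, n = 3). The cells of the CNT class made up most of D0 (1016 cells, led by Klk1), D2 (877 cells, led by Aqp3, Ptger1 and Aqp2) and D3 (750 cells, led by Adamts1, Gdf15 and Cldn4). The 10 leading genes of D2 held the PC markers Aqp2, Aqp3 and Fxyd4 and no CNT marker, so D2 is given by its number only. In the 6 sub-clusters tested, 51 tests of the 10 genes were made and 11 passed, 4 higher and 7 lower in KO, against 1.6% of all tests.

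Calb1 moved in opposite directions within the DCT. In D4, Calb1 was at 652, 609 and 868 CPM in the WT mice and 2482, 2182 and 2519.7 CPM in the KO mice, where 1.78% of genes passed. Every KO library had more than 2 times the highest WT library (log2 fold change of 1.79 with SE 0.12 and an adjusted p of 5.14e-08 by edgeR). In D1 it was at 1099, 1896 and 1959.6 CPM (WT) and 2604, 3393 and 3234 CPM (KO), again higher in every KO library (log2 fold change of 0.84 with SE 0.18 and an adjusted p of 0.0173 by edgeR), where 0.725% of genes passed. The D1 call was lost without WT replicate 1 or any of the KO replicates (adjusted p 0.117 to 0.214), in the libraries without Xist (adjusted p = 0.0917) and at the 30% mitochondrial limit (adjusted p = 0.397). In D5, the sub-cluster with the most Calb1, it was lower instead, at 10947, 9252 and 11551 in WT against 6301, 5030.0 and 6497 CPM in KO (log2 fold change of -0.86 with SE 0.13 and an adjusted p of 0.00219 by edgeR), where 0.439% of genes passed. The ratio of D5 to D4 was thus far smaller in KO than in WT.

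The opposite changes were tested as a difference, chosen after they had been seen, in a fit over D4 and D5 with the library as a block. For Calb1 the KO effect in D5 minus that in D4 was -2.65, SE 0.12, adjusted p = 1.15e-21 by edgeR, where 0.854% of 8427 genes passed. At the 30% mitochondrial limit D5 held 83 cells, 5 to 23 per library, which reaches below the minimum of 10 set for the classes. The Calb1 term kept its call there, in the libraries without Xist and in every other alternative run, with values from -3.08 to -2.56. Slc8a1 (-1.11, SE 0.15, adjusted p = 3.88e-06), Trpm6 (-1.10, SE 0.18, adjusted p = 1.96e-04) and Cnnm2 (-0.91, SE 0.22, adjusted p = 0.0212) also passed, the last being lost without any of the libraries other than WT replicate 3, with adjusted p of 0.0639 to 0.207. Kl, lower in both sub-clusters by fold change, did not differ past the threshold (-0.11, SE 0.13, adjusted p = 0.907).

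Trpm6 and Pvalb, higher in KO in the whole DCT class, were higher in D4. Trpm6 in D4 was at 85.4, 81.2 and 95.9 CPM in the WT mice and 197, 159.9 and 212 CPM in the KO mice, with the groups far apart (log2 fold change of 1.16 with SE 0.14 and an adjusted p of 4.73e-05 by edgeR). In D5 it was at 88.9, 97.1 and 113 CPM (WT) and 108, 106 and 98.1 CPM (KO), overlapping groups (log2 fold change of 0.03 with SE 0.16 and an adjusted p of 0.987 by edgeR), and in D1 at 146, 150.3 and 206 and 143, 199 and 211 CPM, likewise overlapping. Pvalb in D4 was at 176, 186 and 159.8 in WT against 317, 554 and 771 CPM in KO (log2 fold change of 1.68 with SE 0.21 and an adjusted p of 9.21e-05 by edgeR). Its level in D1 was 503, 432 and 629 CPM in the WT mice and 431, 949 and 744 CPM in the KO mice and did not pass (log2 fold change of 0.31 with SE 0.20 and an adjusted p of 0.776 by edgeR). All 3 calls in D4, Calb1, Trpm6 and Pvalb, were kept in each of the 6 leave-one-out fits and at sub-cluster resolution 1.0, where the matching group shared 668 of its 669 cells with D4. At the 30% mitochondrial limit, which left 162 D4 cells, Calb1 still passed (2.48, adjusted p = 0.0278) and Trpm6 and Pvalb did not (adjusted p = 0.0798 and 0.232). Cnnm2 and Slc8a1 in D4 did not pass (0.61, adjusted p of 0.122 by edgeR, and 0.66, adjusted p = 0.177).

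Trpv5 was nearly absent from D4 in both groups, while S100g was present. Trpv5 was at 2.43, 0 and 1.011 CPM in the KO libraries of D4, against 199.6, 202 and 231 CPM in their D5, and S100g in D4 was at 1323, 1616 and 671 CPM (WT) and 1302, 1146 and 507 CPM (KO), overlapping groups. The summed level of 8 CNT markers in D4 was 3651 to 4388 CPM in WT and 2162 to 2830 CPM in KO, with 1 marker at 0. Of 8 LOH markers, with 1 at 0, the sum was 4153 to 5774 CPM in WT and 4790 to 9959 CPM in KO, and the part of either list in the differences was not tested.

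In D5, Trpv5 and Kl were lower beside Calb1. Trpv5 there was at 345, 297 and 369 in WT against 199.6, 202 and 231 CPM in KO, without overlap (log2 fold change of -0.71 with SE 0.15 and an adjusted p of 0.0327 by edgeR). Kl was at 2566, 2185 and 2756 CPM in the WT mice and 1349.5, 1551 and 1895 CPM in the KO mice (log2 fold change of -0.68 with SE 0.15 and an adjusted p of 0.0460 by edgeR). Both calls were lost on leaving out WT 1, WT 3, KO 1 or KO 2, with adjusted p of 0.138 to 0.180 and 0.209 to 0.254. S100g was at 26568, 25369 and 20472 CPM (WT) and 20339.9, 10170.3 and 15886 CPM (KO), and Slc8a1 at 3404, 2282 and 2987 CPM and 2278, 1784 and 2273 CPM. Their groups did not overlap, as for 14.2% of genes in D5, but the tests did not pass (-0.67, adjusted p of 0.102 by edgeR, and -0.49, adjusted p = 0.261). In D1, Kl was at 675, 521 and 1005 in WT against 401, 545 and 285 CPM in KO and passed despite an overlap (log2 fold change of -0.88 with SE 0.21 and an adjusted p of 0.0475 by edgeR), but not with RLE factors or DESeq2, nor without WT replicate 3 or any of the KO replicates (adjusted p 0.110 to 0.446).

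D5 made up 17.8% to 20.6% of DCT cells in WT and 14.0% to 18.9% in KO, and 27.4% to 34.2% of DCT UMIs in WT and 20.7% to 31.0% in KO. These ranges overlapped. The class-level value of a gene that is high in D5 depends on the share of D5 and on the level there, and the part of each was not tested. Of all retained cells, the DCT class held 10.2% ± 0.928 (SD, n = 3) among WT libraries and 5.48% ± 0.508 among KO libraries, and PC 5.37% ± 0.611 and 3.11% ± 1.34. In the sums over all cells, fewer cells of a class and less RNA of a gene per cell cannot be told apart. There Trpv5 was at 102.1, 67.6 and 73.0 CPM in the WT mice and 78.5, 59.2 and 73.5 CPM in the KO mice, Pvalb at 28.4, 22.6 and 28.4 and 24.1, 33.6 and 36.2 CPM, and neither passed (adjusted p of 0.699 by edgeR and 0.609).

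**Figure D4:**
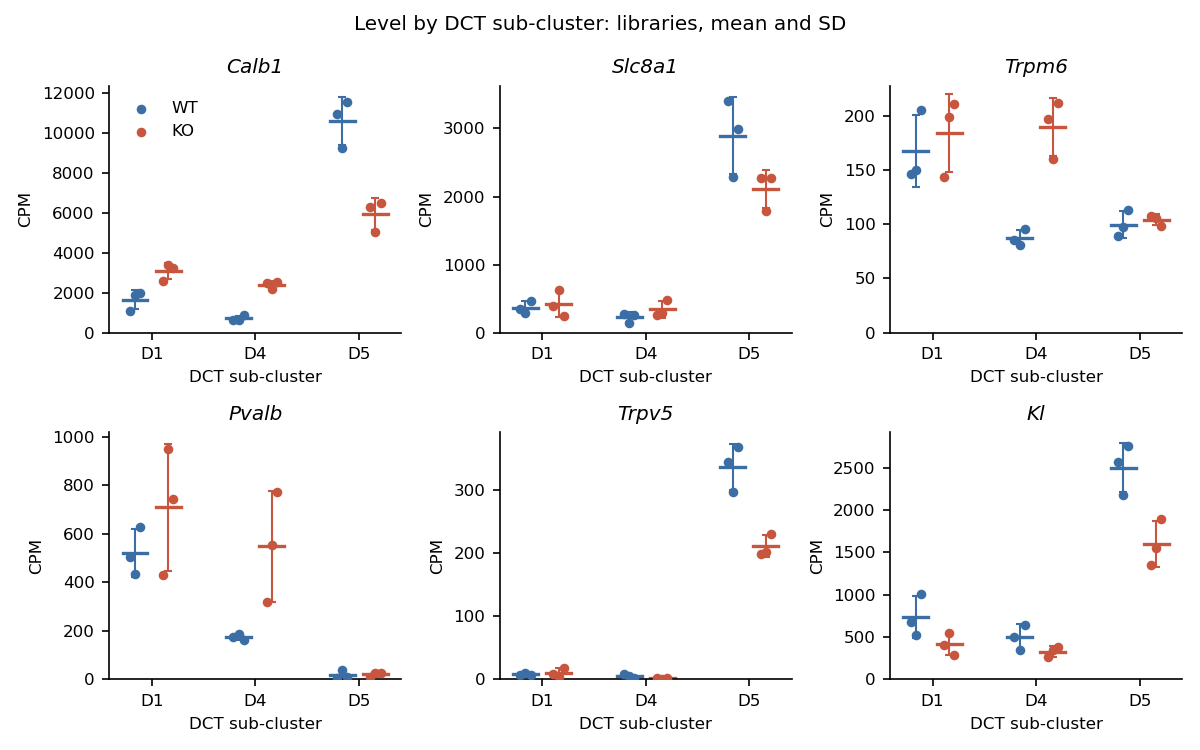
Level in CPM of Calb1, Slc8a1, Trpm6, Pvalb, Trpv5 and Kl in the DCT sub-clusters D1, D4 and D5, each point a library (WT blue, KO red), with the mean (bar) and SD (error bar) of 3 libraries. Calb1 is higher in KO in D1 and D4 and lower in D5, Trpm6 and Pvalb are higher in D4, and Trpv5 and Kl are lower in D5.

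Atp2b2 was lower in each of the 3 sub-clusters D0, D2 and D3. It was at 43.8, 38.2 and 34.9 CPM (WT) and 14.7, 26.1 and 15.6 CPM (KO) in D0 (log2 fold change of -1.09 with SE 0.24 and an adjusted p of 0.0214 by edgeR; 1.8% of genes called). In D2, which had the most of it, the values were 78.9, 109.8 and 81.8 in WT against 39.6, 55.6 and 31.7 CPM in KO (log2 fold change of -1.08 with SE 0.22 and an adjusted p of 0.00701 by edgeR; 2.31% called). In D3 they were 69.1, 70.7 and 60.1 CPM in the WT mice and 27.7, 45.7 and 35.5 CPM in the KO mice (log2 fold change of -0.95 with SE 0.21 and an adjusted p of 0.0145 by edgeR; 2.1% called). No sub-cluster had overlapping groups. The D2 and D3 calls were lost without KO replicate 1 (adjusted p = 0.0904 and 0.162), and the D0 call without WT replicate 1, KO replicate 1 or KO replicate 3 (adjusted p 0.0923 to 0.244). With DESeq2 the D0 and D3 calls were lost (adjusted p = 0.152 and 0.105). D3 was also lost at the 30% mitochondrial limit (adjusted p = 0.207). None of the 3 passed in the libraries without Xist (adjusted p = 0.274, 0.274 and 0.280). S100g lay lower in every KO library in all 3, with D3 at 26686, 20903 and 23289 CPM (WT) and 9912, 9857 and 17802 CPM (KO), and did not pass in any (adjusted p of 0.498 by edgeR, 0.142 and 0.104 in D0, D2 and D3). The share of all genes without overlap was not computed for these sub-clusters, which come from the same mice.

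The share of cells with at least 1 UMI was compared after each cell was thinned to 1000 UMIs, since cells differ in depth. The share in LOH, which should lack Calb1, Trpm6, Pvalb and Trpv5, is given beside theirs as background. In D4, Calb1 was found in 28.4% ± 7.09 of WT cells and 77.5% ± 7.88 of KO cells (SD over 3 libraries). The 3 KO libraries all lay above the 3 WT libraries, with 436 WT and 215 KO cells thinned and 68 and 26 shallower cells left out. Unthinned, the shares were 57.3% and 89.1%, and in LOH the thinned shares were 2.54% ± 0.960 and 2.78% ± 1.13. In D5 nearly all cells of both groups had a Calb1 UMI, 89.8% ± 2.81 and 94.6% ± 5.36, so the share is near its upper limit there and cannot show a difference.

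Trpm6 in D4 was found in 9.58% ± 2.36 of thinned WT cells and 19.9% ± 2.79 of KO cells (48.4% and 67.0% unthinned), and Pvalb in 13.1% ± 2.603 and 40.7% ± 12.4 (31.6% and 67.2% unthinned). Both shares were higher in every KO library than in every WT library. In LOH they were 0.290% ± 0.0202 and 0.285% ± 0.304 for Trpm6 and 0.286% ± 0.294 and 0.0891% ± 0.154 for Pvalb. Trpv5 in D5 was found in 24.3% ± 1.70 of thinned WT cells and 21.4% ± 1.95 of KO cells (66.4% and 53.8% unthinned), against 0.201% ± 0.174 and 0.374% ± 0.200 in LOH. Kl in D5 was found in 86.2% ± 3.51 and 75.3% ± 10.1 (93.7% and 86.6% unthinned). LOH, which expresses Kl, had 20.7% ± 0.703 and 16.2% ± 4.19. Thinning removes the deeper sampling of some cells but not the free RNA they carry.

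**Figure D5:**
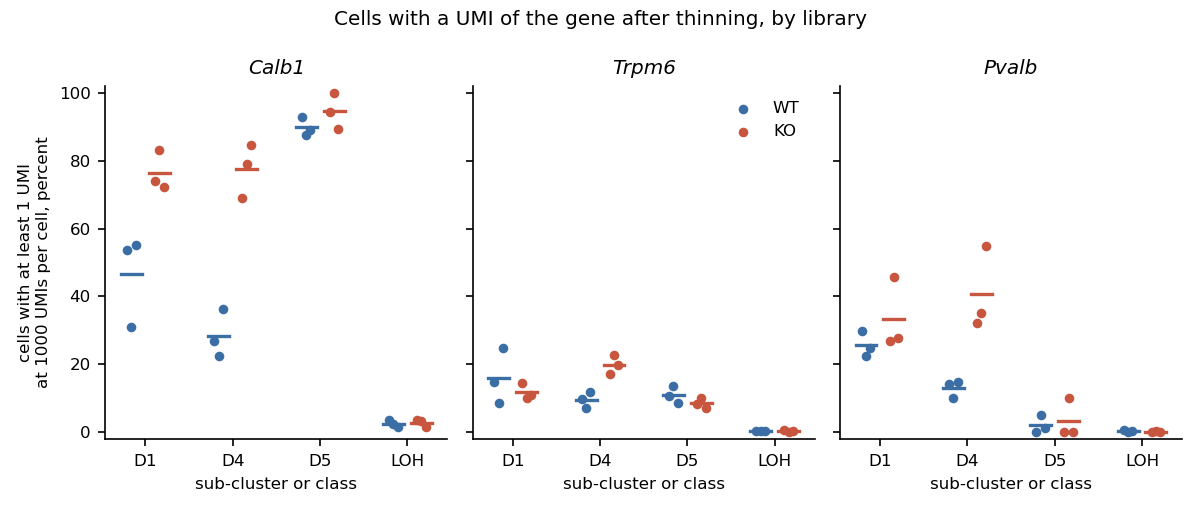
Share of cells (percent) with at least 1 UMI of Calb1, Trpm6 or Pvalb after thinning each cell to 1000 UMIs, in DCT sub-clusters D1, D4 and D5 and in LOH cells, each point a library (WT blue, KO red) with a bar at the group mean. In D4 the KO libraries lie above the WT libraries for all 3 genes, and in LOH the shares are near 0 in both groups.

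Around these 10 genes, 39 other genes of calcium and magnesium handling were followed in the same fits. Over the 13 classes 243 tests were made and 15 passed, 7 higher and 8 lower, in 7 classes and 11 genes, against the 1.5% of all tests given above. Of these 15 calls, 6 were kept in the libraries without Xist and 4 at the 30% mitochondrial limit. With 1 library left out, 7 to 13 were kept, the fewest without WT replicate 2. The calls below are those of the main fit, and outside IC the genes lost in these fits are not named here. Their median log2 fold change was 0.00064 in DCT over 26 genes and -0.038 in CNT over 26 genes. Of the 8 channels, buffers and pumps, Trpv6, the close relative of Trpv5, was higher in PC, at 15.8, 16.7 and 13.6 in WT against 41.2, 26.9 and 28.3 CPM in KO (log2 fold change of 1.09 with SE 0.22 and an adjusted p of 0.0221 by edgeR). Anxa2, which with S100a10 forms a complex that holds TRPV channels at the membrane, was higher in CNT, at 23.7, 25.5 and 20.5 CPM in the WT mice and 51.5, 53.9 and 41.5 CPM in the KO mice (log2 fold change of 1.09 with SE 0.14 and an adjusted p of 5.32e-04 by edgeR). S100a10 was higher in LOH, at 94.7, 125 and 100.5 CPM and 170.0, 159 and 166 CPM (log2 fold change of 0.63 with SE 0.11 and an adjusted p of 0.00649 by edgeR; 3.68% of LOH genes called).

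Among 7 hormone receptors and sensors, the vitamin D receptor gene Vdr was lower in PC, at 106, 125 and 115 CPM (WT) and 79.1, 62.7 and 49.0 CPM (KO) (log2 fold change of -0.85 with SE 0.17 and an adjusted p of 0.0236 by edgeR). The FGF receptor gene Fgfr1 was lower in IC (log2 fold change -0.77, adjusted p of 0.0245 by edgeR). Of 6 genes of the paracellular route, the claudin gene Cldn16, which belongs to the thick ascending limb, was higher in CNT and PC at low levels. It was at 0.877, 2.72 and 0.468 in WT against 12.4, 8.95 and 15.2 CPM in KO in PC (log2 fold change of 3.11 with SE 0.50 and an adjusted p of 0.00760 by edgeR) and at 2.96, 5.14 and 3.46 and 12.5, 9.99 and 11.1 CPM in CNT (log2 fold change of 1.54 with SE 0.27 and an adjusted p of 0.00632 by edgeR). In the LOH class it was at 100.3, 119 and 126 CPM in the WT mice and 84.9, 112 and 113 CPM in the KO mice and did not pass. Cldn16 was also a leading gene of cluster 10, where it was not among the genes that passed either.

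Of the 18 genes of magnesium transport and its regulation, Slc41a3, a magnesium transporter gene, was higher in DCT, at 9.50, 11.0 and 11.1 CPM (WT) and 41.8, 23.7 and 30.9 CPM (KO) (log2 fold change of 1.63 with SE 0.21 and an adjusted p of 0.00103 by edgeR). It rose there beside Trpm6 and Pvalb. Egf, the magnesiotropic hormone made in the thick ascending limb and early DCT, was lower in LOH, at 12279, 13159 and 11410.2 in WT against 8859, 9758 and 9582 CPM in KO (log2 fold change of -0.38 with SE 0.08 and an adjusted p of 0.0223 by edgeR), and lower in cluster 10 (log2 fold change -0.68, adjusted p of 5.91e-04 by edgeR). The podocyte class passed as well (-0.67, adjusted p of 0.0128 by edgeR; 1.78% of genes called), at 315 to 576 CPM, and the part of free RNA in that was not tested. In DCT as a whole Egf overlapped between groups (-0.14, adjusted p of 0.735 by edgeR), while in D5 it was lower, at 1108, 1551 and 1244 CPM in the WT mice and 775, 869.6 and 473 CPM in the KO mice (log2 fold change of -0.92 with SE 0.16 and an adjusted p of 0.00427 by edgeR).

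The potassium channel gene Kcnj10, which supports magnesium uptake in the DCT, was lower in PC, at 196, 146 and 176 CPM (WT) and 75.8, 88.4 and 73.9 CPM (KO) (log2 fold change of -1.10 with SE 0.16 and an adjusted p of 0.00395 by edgeR), and not in DCT (-0.05, adjusted p of 0.943 by edgeR). Kcnj10, its partner Kcnj16 and Fgfr1 passed in IC, and all 3 calls were lost without the shallow cluster 2. Within the sub-clusters, the parathyroid hormone receptor gene Pth1r, named after its values were seen, was higher in D1 and D4, at 37.5, 53.1 and 38.6 in WT against 71.3, 89.7 and 89.0 CPM in KO in D4 (log2 fold change 0.94, adjusted p of 0.00509 by edgeR). Slc41a3 was higher in the same 2 sub-clusters, with log2 fold changes of 2.06 in D1 and 1.87 in D4 (adjusted p of 0.00944 by edgeR and 4.90e-04).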

How the data were processed

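Renal cortex of 3 WT and 3 KO mice was dissociated and sequenced as single cells, 1 BD Rhapsody library per mouse. The authors deposited UMI counts per gene and barcode, not normalized, made with the BD Rhapsody pipeline on mm10 (the submitters' processing notes also name Scanpy 1.8). Barcodes with 500 to 60000 UMIs, 200 to 8000 genes and at most 50% mitochondrial UMIs were kept, and the 6% with the highest doublet scores per library were removed, because the automatic threshold of Scrublet marked under 0.6%. Cells were clustered with scanpy 1.11.5 and leidenalg 0.10.2 (2000 variable genes without the genes reported here, 30 components, 15 neighbours, resolution 1.0, sub-clusters 0.5) and named from marker lists. Cell annotations by the authors were not used here. UMIs were summed per library and class and tested with edgeR 4.0.16 in R 4.3.3 (quasi-likelihood, TMM factors, genes kept by a minimum count of 10, Benjamini-Hochberg adjustment over all genes of the class). CPM values were computed from these sums. The script was tested on simulated counts with known changes. Alternatives were RLE factors, no filter, DESeq2 1.42.0, other mitochondrial limits, no doublet removal, other resolutions, left-out libraries, a block for the replicate number, and a block for or removal of the libraries with Xist. Leaving out the shallow IC cluster and comparing D5 with D4 were chosen after seeing the data. The members and lists were chosen with earlier results of these data known. The genes named outside the members are those of the pathway list that passed in a class, with exceptions stated and 1 call in LOH not reported here, and for likeness the 3 nearest genes. Promoters came from a RefSeq table of GRCm38.p6, which held 9 of the 10 genes. The correlations over genes between same-numbered WT and KO libraries were 0.266, -0.0557 and 0.288 over all cells, -0.0519, -0.0876 and -0.0631 in DCT and -0.0983, -0.212 and -0.0140 in CNT. Since not every pair exceeded 0.1, the numbers were not taken to pair the mice. Retained UMIs per library, 22965576 to 35466583, set the precision, and errors after ± are the SD over libraries, 1 per mouse. Each SE is the absolute log2 fold change divided by the square root of edgeR's F statistic.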

Additional observations from a re-analysis of the deposited data

Results flagged for a closer look

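The genotype effect (log2 fold change, KO against WT) differed between CNT and DCT by test for Kl (0.87, CNT minus DCT), Trpm6 (-1.14) and Trpv5 (1.13), and between the DCT sub-clusters D5 and D4 for Calb1 (-2.65, D5 minus D4), Cnnm2 (-0.91), Slc8a1 (-1.11) and Trpm6 (-1.10). The D5 and D4 comparison was chosen after the data were seen.

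In other pairs of classes or sub-clusters, every KO library lay above every WT library in the first and below every WT library in the second. These differences were not tested. Groups without overlap were found for 16.2% of genes in CNT and 14.2% in D5. This share was not computed for the other classes and sub-clusters, nor for opposite directions in a pair, so the pairs have no background to be read against. The pairs were Trpv5 in DLH against DCT (2.48 on the log2 scale), Atp2b1 in LOH and in PC against T and NK cells (0.53 and 0.57), and Trpm6 in DCT and in PC against IC (1.49 and 2.03). Kl in PC differed in this way from DCT (1.21), DLH (1.48), LOH (0.80) and cluster 10 (1.47), and Calb1 in D1 from D5 (1.70). In DLH, Trpv5 was at 27.1, 23.5 and 31.4 CPM in the WT mice and 33.9, 138 and 67.5 CPM in the KO mice, on 6 to 47 UMIs, and did not pass (adjusted p of 0.281 by edgeR).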

How the results depend on the processing

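The 28 calls were followed through the alternative fits, each fit serving all calls of its class, which gave 398 readings of a call under a setting. Of these, 303 kept the call, 93 kept the direction but not the call, and 2 reversed it. The calls kept in every fit that could be made were Calb1 in D4 and in D5 and the D5 minus D4 terms of Calb1 and Trpm6. Calb1 in D5 and the Trpm6 term had no value at the 30% mitochondrial limit, where D5 had 5 to 23 cells per library. Calls of members within classes, 9 as reported, were 26 without the filter on low counts, 2 at the 30% mitochondrial limit, 5 without a limit, and 5 to 10 when 1 library was left out. Over all cells the 1 call became 2 with DESeq2, 0 in the libraries without Xist, 2 at 30%, 0 without a limit and 0 to 1 with 1 library left out. In the sub-clusters 11 became 19 without the filter, 1 at 30% and 5 to 14 with 1 library left out. D2 and D5, which held 1 and 3 of the 11 calls, were not tested at 30%, with as few as 8 and 5 cells in a library. The 3 calls of CNT against DCT became 6 without the filter, 0 without the library block, 0 at 30% and 2 to 3 with 1 library left out, and the 4 of D5 against D4 became 2 without the library block, 1 at 30% and 3 to 4. The 15 calls of the pathway list became 32 without the filter, 8 in the libraries without Xist, 4 at 30% and 7 to 15. At 30%, mean levels in DCT were 3032 CPM for Calb1, 257 for Trpm6, 495 for Pvalb and 139.6 for Cnnm2. The cause of these shifts was not tested; the 30% limit left 31.6% of DCT cells.

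Signs changed as follows (log2 fold change). With 1 library left out, CNT values ranged from -0.25 to 0.64 for Slc8a1, -0.23 to 0.19 for Atp2b1 and -0.36 to 0.22 for Kl. Slc8a1 in CNT was -0.19 in the libraries without Xist and -0.013 at 30%. Atp2b1 in CNT was 0.013 with the replicate block, 0.035 with the Xist block, 0.20 at 30% and 0.018 without doublet removal. Kl in CNT was 0.080 with the replicate block, 0.088 with the Xist block and 0.045 without a mitochondrial limit. In DCT at 30%, Trpv5 was 0.74, Calb1 1.05 and Atp2b1 -0.048, and the CNT minus DCT term of Trpv5 was -0.53. In the libraries without Xist, Atp2b1 in DCT was -0.055 and Atp2b2 in DCT 0.032. The replicate block gave 10 calls in classes, 14 in sub-clusters, 14 in the pathway list and 1 over all cells, but the numbers name libraries only. Atp2b2 in IC could not be tested without the shallow cluster.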
